A study of Homo sapiens with 18 samples.

Results

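RNA of 10 genes was followed across 6 combinations of guide and treatment in RKO-iCas9 cells. The genes are NR4A1, NR4A2, EGR1, IER2, IER3, IER5, KLF4, KLF6, KLF10 and MYC. They were chosen by name from the NR4A, EGR, IER and Krüppel-like families of immediate-early genes together with MYC, which leaves out others such as the AP-1 subunits, and make up 10 of the 39859 gene symbols listed, of which 25001 had a read. Of the 10, 7 passed the filter on low counts that left 13370 genes for testing, and IER5, KLF4 and KLF6 did not. RKO cells come from a human colon carcinoma, and the RKO-iCas9 derivative used by the study is a single-cell-derived clone in which doxycycline switches on Cas9. Cells expressing a guide RNA were sorted as a pool and given 100 ng/mL doxycycline for 5 days. The guide cut ERH (sgERH), a small conserved protein bound to RNA-processing machinery, or the AAVS1 safe-harbour locus (sgAAVS1, the control). Non-treated cells (NT) were compared with cells given 25 ng/mL IFNγ or 10 ng/mL IL-1β for 4 h. All groups therefore carried the inducible Cas9, a guide and the doxycycline exposure.

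The 3′ ends of polyadenylated transcripts were sequenced in 18 libraries, labelled as 3 biological replicates of each group. The 15 libraries that the study kept had 4987127 to 5986338 counts each and entered the tests. Groups held 3 of these, except that sgAAVS1_NT, sgERH_IFNγ and sgAAVS1_IL-1β held 2. The other 3, with 3811492, 4293010 and 11821239 counts, were outliers in the study's principal component analysis and are described at the end. ERH RNA averaged 575 to 635 CPM (counts relative to the size of the library) in the sgAAVS1 groups and 290 to 299 CPM in the sgERH groups, and its log2 fold change was −1.02 ± 0.07 (SE) averaged over treatments. The epithelial markers KRT8, KRT18, EPCAM and CDX2 were detected, KRT19 and CDX1 were at 0 in the 15 libraries, and CDH1 and VIL1 were at 0.0121 and 0.0118 CPM. The 8 epithelial markers summed to 126 to 157 CPM in sgAAVS1 libraries and 100 to 124 CPM in sgERH libraries. On average KRT18 and KRT8 had log2 fold changes of −0.75 ± 0.08 and −0.30 ± 0.10 in sgERH. EPCAM and CDX2 went the other way, at 1.25 ± 0.15 and 0.81 ± 0.16. The leukocyte list was at or near 0 except for CD68, a lysosomal gene, at 435 CPM, and the sum of the fibroblast and endothelial list did not exceed 0.544 CPM in any library. The part of the lower epithelial sum in the values of the 10 genes was not tested.

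Immediate-early genes are transcribed within minutes of a stimulus from factors that are already present, and their mRNAs and proteins are short-lived. Growth factor and stress signals reach them through MAP kinases that act on serum response factor, its ETS partners and CREB. NR4A1 and NR4A2 are orphan nuclear receptors, EGR1 is a zinc finger transcription factor, and KLF4, KLF6 and KLF10 are Krüppel-like zinc finger factors. IER2, IER3 and IER5 are small proteins first recognised as rapid response products, and MYC drives growth, ribosome production and metabolism as a partner of MAX. The RNA amounts reported here do not separate synthesis from decay, and a change in the RNA of every cell cannot be told apart from a change in a share of the pool.

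Members for which the promoter table of RefSeq (GRCh38.p14) had a printable entry numbered 6 of 10, with 7 windows. The 250 bases before the annotated start are printed for EGR1 and IER2, which had the highest read totals among these. They are also printed for both starts listed there for NR4A1, which rose in sgERH. Further starts of NR4A1, if any, were not searched. Capitals mark 3 kinds of match, found on either strand: the CArG box bound by serum response factor, the cAMP response core TGACG and the ETS core CCGGAA. EGR1 lay at chr5:138465229-138465478 on the + strand, IER2 at chr19:13150161-13150410 on the + strand, and NR4A1 at chr12:52022582-52022831 and chr12:52037465-52037714 on the + strand.
EGR1: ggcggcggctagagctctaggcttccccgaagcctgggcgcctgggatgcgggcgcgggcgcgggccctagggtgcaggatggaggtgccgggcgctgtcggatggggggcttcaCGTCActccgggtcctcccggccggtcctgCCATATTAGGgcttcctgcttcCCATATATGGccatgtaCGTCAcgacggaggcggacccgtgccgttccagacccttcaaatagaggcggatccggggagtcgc
IER2: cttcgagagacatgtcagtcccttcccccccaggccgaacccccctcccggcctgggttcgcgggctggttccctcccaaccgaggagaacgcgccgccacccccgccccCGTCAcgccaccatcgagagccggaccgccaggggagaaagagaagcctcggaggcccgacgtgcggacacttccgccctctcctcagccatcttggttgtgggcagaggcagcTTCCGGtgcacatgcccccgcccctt
NR4A1 start 1: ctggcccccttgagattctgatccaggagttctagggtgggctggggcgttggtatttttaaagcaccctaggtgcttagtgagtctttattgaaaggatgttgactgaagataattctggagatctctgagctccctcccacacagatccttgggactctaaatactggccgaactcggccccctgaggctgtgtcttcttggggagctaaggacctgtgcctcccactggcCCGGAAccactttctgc
NR4A1 start 2: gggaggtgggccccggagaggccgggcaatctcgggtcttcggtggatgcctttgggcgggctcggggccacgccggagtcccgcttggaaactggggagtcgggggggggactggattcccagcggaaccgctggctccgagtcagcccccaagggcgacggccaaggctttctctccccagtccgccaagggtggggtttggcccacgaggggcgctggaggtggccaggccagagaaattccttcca

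The EGR1 window held 2 CArG boxes, from −105 to −96 and from −83 to −74 counted back from the base before the start, and 2 matches to TGACG. Of 35116 upstream windows of the same length in that table, 1.16% held a CArG box and 21.2% held TGACG. EGR1 also had the EGR site GCGNGGGCG and the interferon-type element TTCNNNGAA, which 8.41% and 6.57% of windows held. The IER2 window held 1 TGACG and 1 CCGGAA, and the latter was found in 14.5% of all windows and 24.2% of the 13302 windows of tested genes. In the latter windows the CArG box was found in 1.07%, TGACG in 28.5%, the EGR site in 13.4% and TTCNNNGAA in 5.35%. The first NR4A1 window held 1 CCGGAA, from −17 to −12, and the second held no match to any of the 9 motifs searched. Besides the 5 named so far, the search covered the AP-1 site TGANTCA (6.57% of windows), the E-box CACGTG (6.34%), the TATA box TATAAA (10.7%) and the κB site (5.21%). Among members that were barely counted, IER5 had 1 CCGGAA, KLF4 had 2 TGACG, 1 E-box and 1 EGR site, and KLF6 had 1 E-box and 1 EGR site. A match is a run of letters in this window and nothing was measured of binding there.

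The comparison of sgERH with sgAAVS1 asks how ERH targeting alters expression with and without a cytokine. Among the nuclear receptors, NR4A2 RNA was higher in sgERH in each treatment, and every one of its 8 sgERH libraries lay above all 7 sgAAVS1 libraries. NR4A2 (ENSG00000153234.16, chromosome 2, 156324437 to 156342348, − strand, GRCh38) encodes a receptor also known as Nurr1, best studied in dopamine neurons and induced widely by cAMP and inflammatory signals. In CPM scaled by TMM factors, its levels in sgAAVS1_NT were 1.89 and 1.63, and in sgERH_NT 18.8, 15.8 and 19.3. With IFNγ they were 1.24, 1.12 and 1.23 in sgAAVS1 against 15.9 and 13.96 in sgERH. With IL-1β they were 3.42 and 0.409 in sgAAVS1 against 12.4, 7.61 and 16.6 in sgERH. The spread was widest with IL-1β in both guides, and the guides did not overlap. These levels rested on 2 to 17 reads per sgAAVS1 library and 40 to 114 reads per sgERH library.

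The log2 fold change of NR4A2 (sgERH minus sgAAVS1) was 3.34 ± 0.43 (SE) in NT, a 10.2-fold difference, with an edgeR adjusted p of 1.84e-06. It was 3.62 ± 0.42 with IFNγ (adjusted p 5.09e-07) and 2.65 ± 0.43 with IL-1β (adjusted p 5.31e-05). Averaged over the treatments it was 3.21 ± 0.25, with a 95% interval of 2.70 to 3.71 and an adjusted p of 4.74e-11. The IL-1β value turned on the 2 sgAAVS1 libraries, and was 4.82 without replicate 1 and 1.83 without replicate 2, with adjusted p of 2.41e-05 and 0.0061. A gene is said here to have risen or fallen where the adjusted p was no more than 0.05 and the fold was at least 2 in linear terms, that is 1 in log2. By this rule 2 of the 7 tested members rose in NT and 0 fell, while 8.24% of all genes tested were called in that comparison and 5.95% rose. With IFNγ 1 of 7 rose, against 7.61% of genes called and 5.24% risen, and with IL-1β 1 of 7, against 8.48% called and 5.68% risen. On average over treatments 2 of 7 rose, against 8.89% of genes called and 6.75% risen. NR4A1 and NR4A2, the members that rose, passed the filter on low counts through their sgERH reads. Where only the sgAAVS1 groups were fitted, with IFNγ or IL-1β against NT, 5 members passed it, without these 2. The counts risen are therefore not independent of the guide difference. The median log2 fold change over the 7 tested members was 0.00 on average, beside 0.04 over all genes tested.

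NR4A1 (ENSG00000123358.20, chromosome 12, 52022832 to 52059507, + strand), the receptor Nur77, is induced by mitogens and by T cell receptor signals and was counted at a much lower depth, with 191 reads over the 15 libraries. It stood at 0.629 and 0.724 CPM in sgAAVS1_NT, from 3 and 4 reads, and at 3.13, 1.98 and 3.39 CPM in sgERH_NT. With IFNγ the levels were 1.24, 1.86 and 1.64 CPM in sgAAVS1 and 3.51 and 1.09 CPM in sgERH. With IL-1β they were 1.41 and 2.25 CPM in sgAAVS1 and 4.41, 1.33 and 6.31 CPM in sgERH. The guides were apart in NT and overlapped with each cytokine. NR4A1 rose in sgERH_NT by a log2 fold change of 2.03 ± 0.71 (SE, edgeR adjusted p 0.0363) and on average by 1.23 ± 0.37 (adjusted p 0.00769). The values with IFNγ (0.52 ± 0.62, adjusted p 0.578) and IL-1β (1.14 ± 0.59, adjusted p 0.160) did not pass. The call in NT was lost without any of 4 of the 5 libraries compared, at an adjusted p of 0.151 and 0.148 without sgAAVS1_NT replicate 2 or 3, and 0.0783 and 0.0895 without sgERH_NT replicate 1 or 3. The call on average was lost without sgERH_IFNγ replicate 1 (log2 fold change 0.87, adjusted p 0.101), and with all 18 libraries the NT difference did not pass (adjusted p 0.1). The IL-1β difference passed without sgERH_IL-1β replicate 2 (1.54, adjusted p 0.0331), and was 0.66 (adjusted p 0.477) without sgERH_IL-1β replicate 3 and 0.83 (adjusted p 0.508) without sgAAVS1_IL-1β replicate 1.

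**Figure D1:**
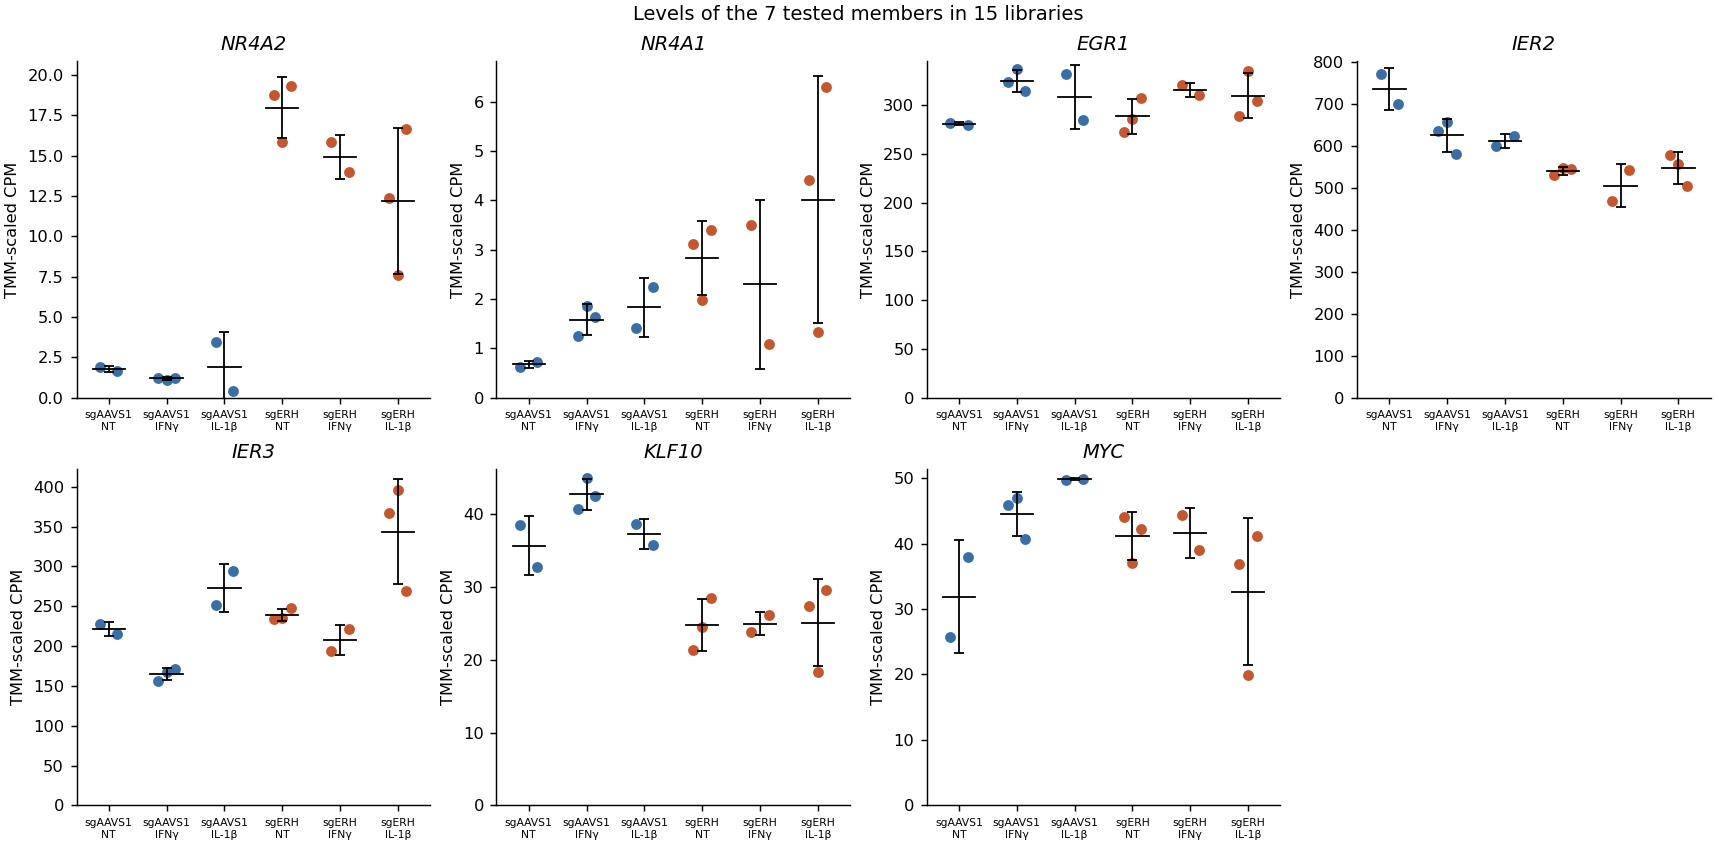
TMM-scaled CPM (vertical axis, from 0) of the 7 tested members in each of 15 libraries, in 6 groups of 2 or 3 libraries, with sgAAVS1 in blue and sgERH in orange. Points are libraries, lines are group means and bars are SDs (the bar of NR4A2 in sgAAVS1_IL-1β runs below 0 and is clipped). NR4A2 lies between 7.61 and 19.3 CPM in sgERH and between 0.409 and 3.42 CPM in sgAAVS1, and EGR1 lies between 272 and 336 CPM in all groups.

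EGR1 (ENSG00000120738.8, chromosome 5, 138465479 to 138469303, + strand), which is the usual reporter of serum and MAP kinase stimulation, showed no difference between guides past the test. It was at 282 and 280 CPM in sgAAVS1_NT and 272, 286 and 308 CPM in sgERH_NT, so that the groups overlapped. With IFNγ it was at 323, 336 and 314 CPM in sgAAVS1 and 320 and 310 CPM in sgERH, and with IL-1β at 332 and 285 CPM against 289, 335 and 305 CPM. The log2 fold change averaged 0.00 ± 0.06 (SE), with a 95% interval of −0.12 to 0.12, from 24384 reads in all. The interval holds under TMM scaling. With total counts as the only scaling, the median of all genes shifted from 0.04 to 0.20, and EGR1 stood at 0.16 (adjusted p 0.0259).

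IER2 and KLF10 were lower in sgERH by less than the fold threshold. IER2 (ENSG00000160888.7, chromosome 19, 13150411 to 13154911, + strand), a nuclear protein linked to cell motility, was at 771 and 699 CPM in sgAAVS1_NT and at 530, 548 and 545 CPM in sgERH_NT. With IFNγ it was at 636, 657 and 582 CPM in sgAAVS1 and at 470 and 541 CPM in sgERH, and with IL-1β at 601 and 624 CPM against 579, 558 and 505 CPM. In TMM-scaled CPM the 7 sgAAVS1 libraries all lay above the 8 sgERH libraries. There sgAAVS1_IFNγ replicate 3 at 582 CPM was just above sgERH_IL-1β replicate 1 at 579 CPM. In CPM of total counts the guides overlapped, with these 2 libraries at 558 and 606 CPM. The log2 fold change was −0.44 ± 0.10 in NT (edgeR adjusted p 0.00176), −0.31 ± 0.10 with IFNγ (0.0299) and −0.16 ± 0.10 with IL-1β (0.254), and −0.30 ± 0.06 on average (1.12e-04). With total counts as the only scaling, the average was −0.15 (adjusted p 0.0256). Of the IER2 reads, 9.16% mapped to more than 1 place.

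KLF10 (ENSG00000155090.15, on chromosome 8), a TGFβ-inducible repressor also called TIEG1, was at 38.6 and 32.8 CPM in sgAAVS1_NT and at 21.4, 24.5 and 28.5 CPM in sgERH_NT. With IFNγ it was at 40.6, 44.9 and 42.5 CPM in sgAAVS1 and at 23.8 and 26.1 CPM in sgERH, and with IL-1β at 38.7 and 35.8 CPM against 27.4, 18.3 and 29.6 CPM. In TMM-scaled CPM the guides did not overlap in any treatment, nor did the 7 sgAAVS1 libraries overlap the 8 sgERH libraries as a whole. In CPM of total counts the guides overlapped as a whole, with sgERH_IL-1β replicate 3 at 32.0 above sgAAVS1_NT replicate 3 at 30.2. The log2 fold changes were −0.52 ± 0.18, −0.77 ± 0.18 and −0.57 ± 0.18 in NT, IFNγ and IL-1β (edgeR adjusted p 0.0311, 0.00236 and 0.0192), and −0.62 ± 0.10 on average (adjusted p 1.6e-05). With total counts as the only scaling the NT and IL-1β values were −0.34 and −0.42 (adjusted p 0.178 and 0.091) and the average was −0.46 (adjusted p 8.08e-04). The edgeR adjusted p in NT was 0.239 and 0.0531 without sgAAVS1_NT replicate 2 or 3. It was 0.129, 0.0701 and 0.0222 without sgERH_NT replicate 1, 2 or 3. With IL-1β it was 0.149 and 0.0687 without sgAAVS1_IL-1β replicate 1 or 2. Without sgERH_IL-1β replicate 1, 2 or 3 it was 0.0226, 0.0726 and 0.00632. By TMM-scaled CPM, IER2 and KLF10 were the 2 members with libraries apart and lower over all treatments, as were 9.56% of genes tested. NR4A2 was the 1 apart and higher, as were 8.1%. By the adjusted p alone 5 of 7 tested members differed on average, 3 higher and 2 lower, while 48.7% of all genes tested did.

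IER3 (ENSG00000137331.12, chromosome 6, 30743199 to 30744548, − strand), a stress-inducible regulator of survival also called IEX-1, was slightly higher in sgERH, but all of its 19528 reads mapped to more than 1 place and its values are uncertain. It was at 228 and 215 CPM in sgAAVS1_NT and at 234, 235 and 248 CPM in sgERH_NT. With IFNγ it was at 157, 167 and 171 CPM in sgAAVS1 and at 194 and 221 CPM in sgERH, and with IL-1β at 251 and 294 CPM against 366, 396 and 269 CPM. The guides were apart in NT and with IFNγ and overlapped with IL-1β. Its log2 fold change averaged 0.26 ± 0.07 (edgeR adjusted p 0.00473), with 0.11, 0.33 and 0.33 in NT, IFNγ and IL-1β (adjusted p 0.566, 0.0561 and 0.0517).

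MYC (ENSG00000136997.22, on chromosome 8) showed no difference between guides past the test on average, at a log2 fold change of −0.11 ± 0.12 (95% interval −0.36 to 0.14, edgeR adjusted p 0.463), and at 0.05 with total counts as the only scaling. It was at 25.8 and 38.0 CPM in sgAAVS1_NT and at 44.1, 37.1 and 42.3 CPM in sgERH_NT, where the ranges overlapped. With IFNγ it was at 45.8, 46.9 and 40.7 CPM in sgAAVS1 and at 44.3 and 39.0 CPM in sgERH. With IL-1β it was at 49.8 and 49.9 CPM in sgAAVS1 and at 36.9, 20.0 and 41.2 CPM in sgERH, with no overlap. The IL-1β difference of −0.60 ± 0.21 had an adjusted p of 0.0342 and was under the fold threshold. It was −0.35 (adjusted p 0.0829) without sgERH_IL-1β replicate 2, the library at 20.0 CPM.

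**Figure D2:**
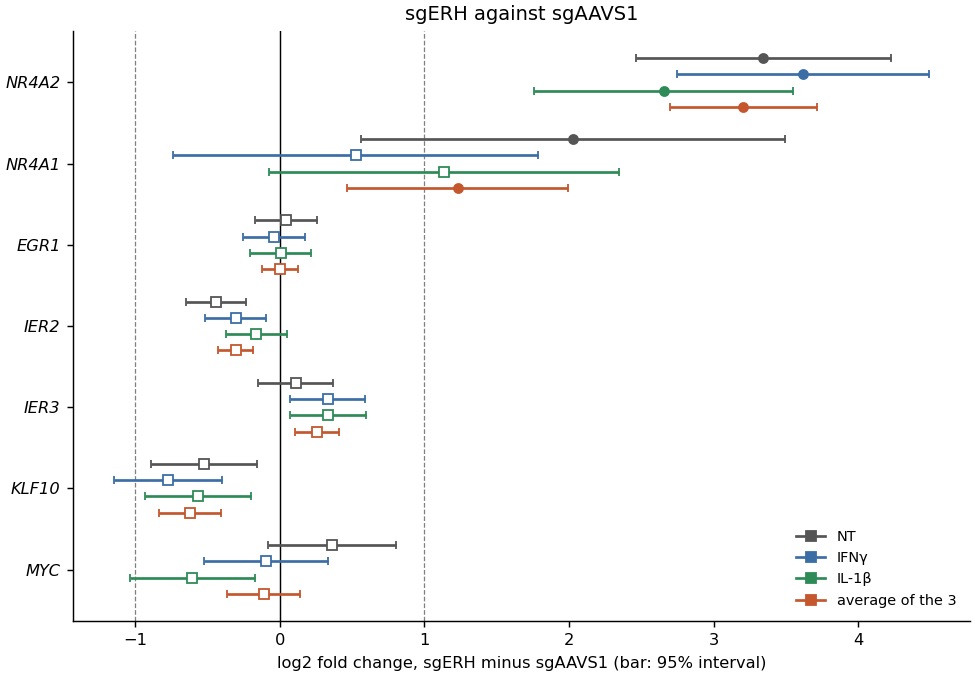
Log2 fold change of sgERH minus sgAAVS1 (horizontal axis) for the 7 tested members in NT, IFNγ and IL-1β and averaged over these, from edgeR on 15 libraries. Bars are 95% intervals, filled circles are called, open squares are not, and dashed lines mark −1 and 1. NR4A2 is at 2.65 to 3.62 in every row, EGR1 sits at 0 and KLF10 at −0.77 to −0.52.

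IER5, KLF4 and KLF6 had few reads, and their rows give counts only. IER5, a co-activator of heat shock factor, had 21 reads over 7 sgAAVS1 libraries and 16 over 8 sgERH libraries, a CPM ratio (sgERH over sgAAVS1) of 0.666 with an exact 95% counting interval of 0.325 to 1.34. KLF4, an epithelial differentiation factor, had 16 and 35 reads, a ratio of 1.91 (1.03 to 3.70). In NT its reads were 5 in sgAAVS1 and 6 in sgERH. Of its 35 sgERH reads, 19 were with IL-1β, and 10 of these were in replicate 2. KLF6, a growth-restraining factor, had 2 and 15 reads, a ratio of 6.56 (1.52 to 59.1). The 2 KLF6 reads of sgAAVS1 were both in sgAAVS1_NT replicate 2, and each of the other 6 sgAAVS1 libraries was at 0. The floor of 3 reads that a count of 0 allows was worth 0.501 to 0.602 CPM, and the exact upper 95% limit of these members in libraries at 0 was 0.616 to 0.740 CPM. These intervals cover counting error only and not the spread between libraries, and the fit without a filter called none of the 3 in any comparison. Among its values, the unfiltered average for KLF6 had an adjusted p of 0.0849.

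The response to cytokine asked whether these genes moved with IFNγ, which signals through JAK kinases, or with IL-1β, which signals to NF-κB and MAP kinases. No member passed the test and the fold threshold in any of the 4 comparisons of a cytokine with NT at 4 h. In sgAAVS1, 0 of 7 tested members were called with IFNγ, where 0.598% of all genes were, and 0 of 7 with IL-1β, where 0.636% were. In sgERH, 0 of 7 were called with either cytokine, beside 0.015% of genes with IFNγ and 0.292% with IL-1β. Both comparisons within a guide share its NT libraries.

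IER3 moved most within a guide by the test. In sgERH it went from 234 to 248 CPM in NT to 269 to 396 CPM with IL-1β, a log2 fold change of 0.52 ± 0.11 with an edgeR adjusted p of 0.0185, and the libraries did not overlap. In sgAAVS1 the values were 0.30 ± 0.14 with IL-1β (adjusted p 0.356) and −0.42 ± 0.13 with IFNγ (adjusted p 0.141). MYC in sgAAVS1 was at 0.64 ± 0.23 with IL-1β (adjusted p 0.227) and 0.47 ± 0.21 with IFNγ (adjusted p 0.499), and its 2 NT libraries differed from each other by more than the 2 IL-1β libraries did. In sgERH, MYC was at −0.33 ± 0.19 with IL-1β (adjusted p 0.45) and 0.02 ± 0.21 with IFNγ (adjusted p 0.992). NR4A1 in sgAAVS1 had fitted values of 1.20 ± 0.77 with IFNγ and 1.40 ± 0.82 with IL-1β, on 7 reads in the 2 NT libraries, and adjusted p of 0.663 and 0.507. NR4A2 had −0.54 ± 0.60 and 0.14 ± 0.61 in sgAAVS1, and −0.27 ± 0.31 and −0.55 ± 0.28 in sgERH, none past the test (adjusted p 0.374 to 0.961). EGR1, IER2 and KLF10 lay between −0.26 and 0.26 in all 4 comparisons.

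**Figure D3:**
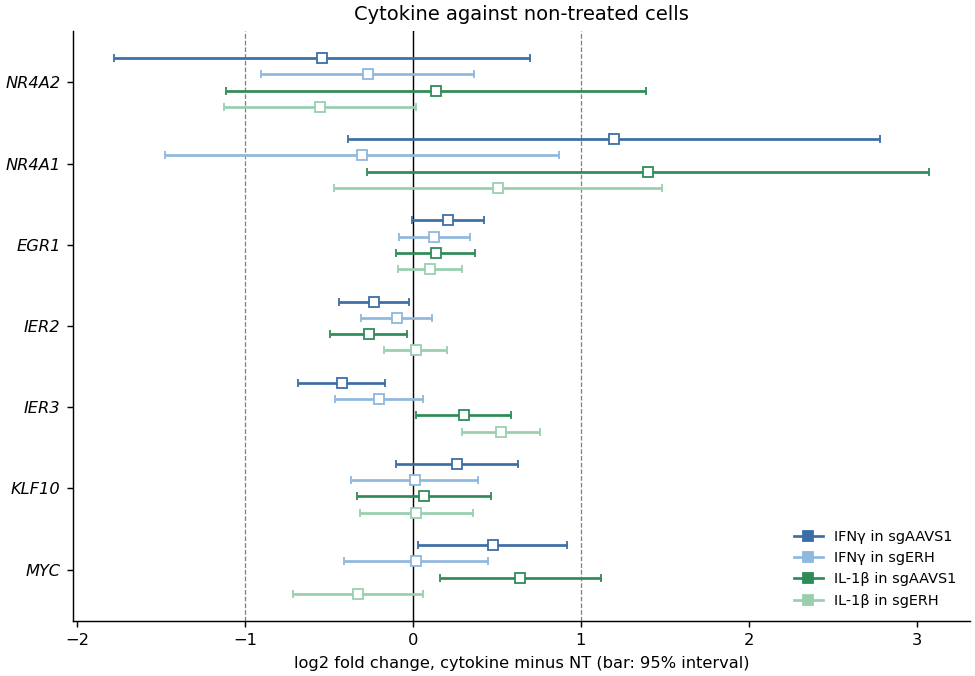
Log2 fold change of cytokine minus NT (horizontal axis) for the 7 tested members, for IFNγ and IL-1β in sgAAVS1 and sgERH, from edgeR on 15 libraries. Bars are 95% intervals, open squares are not called (no member was), and dashed lines mark −1 and 1. IER3 with IL-1β in sgERH, at 0.52, is the value with an adjusted p under 0.05.

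The difference between guides in the cytokine response was tested as an interaction term, and 0 of 7 tested members were called for IFNγ, beside 0.202% of genes, and 0 of 7 for IL-1β, beside 0.0%. The count of 0 for IL-1β over all genes came from edgeR, with 1487 genes at an unadjusted p under 0.05, and DESeq2 called 2. The count was 70 with no filter on low counts and 140 without sgERH_IL-1β replicate 3. MYC had the interaction nearest to the threshold. Its IL-1β response was lower by 0.97 ± 0.30 on the log2 scale in sgERH than in sgAAVS1 (95% interval −1.58 to −0.35), at an unadjusted edgeR p of 0.00375 and an adjusted p of 0.312. Without sgERH_IL-1β replicate 3, the fit with 140 calls, it was −1.16 with an adjusted p of 0.0314, and without sgERH_IL-1β replicate 2 it was −0.71 with 0.219. IER2 stood at 0.28 ± 0.14 for IL-1β (adjusted p 0.469), and the other values had adjusted p of 0.645 or more.

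The order of group means can be read from the same libraries. NR4A2 fell in 2 blocks, with sgERH_NT, sgERH_IFNγ and sgERH_IL-1β at 17.98, 14.9 and 12.2 CPM, then sgAAVS1_IL-1β, sgAAVS1_NT and sgAAVS1_IFNγ at 1.92, 1.76 and 1.20 CPM. Within the sgERH block neighbours overlapped, and between the blocks they did not. KLF10 fell in blocks the other way round, at 42.7, 37.2 and 35.7 CPM in sgAAVS1 with IFNγ, IL-1β and NT and at 25.1, 25.0 and 24.8 CPM in sgERH with IL-1β, IFNγ and NT. The groups of EGR1 ran from 325 CPM in sgAAVS1_IFNγ to 281 CPM in sgAAVS1_NT, and all neighbours overlapped. MYC ran from 49.8 CPM in sgAAVS1_IL-1β to 31.9 CPM in sgAAVS1_NT, and only the first step was apart. The span of the 6 group means on the log2 scale was 3.54 for NR4A2, 1.85 for NR4A1, 1.04 for IER3, 0.79 for KLF10, 0.67 for MYC, 0.54 for IER2 and 0.21 for EGR1.

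For the 3 members that spanned at least 1, the genes with the most similar 6 group means were found among 10437 candidates, as the root mean square difference after centring. Nearest to NR4A2 were AC005332.5 (0.225), U2 (0.304, with 99.0% of its reads multimapping) and MMP1 (0.309), the last a collagenase. Nearest to NR4A1 were RNU6-60P (0.145), COBLL1 (0.193) and HMX3 (0.204), and nearest to IER3 were ZNF430 (0.103), USP21 (0.117) and HMBOX1 (0.119). These are distances between patterns over 6 groups, chosen by that distance, and carry no test.

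Lists of related genes place the members. They were chosen with results of these data known, as stated with the processing, and each is described by its counts and its median over treatments. Of 22 family relatives (other NR4A, EGR and Krüppel-like genes, IER5L, MYCN and MYCL), 10 were tested, and in sgERH averaged over treatments 4 rose and 0 fell, where 6.75% of all genes rose, with a median log2 fold change of 0.70 beside 0.04 over all genes. KLF5, a proliferative factor of intestinal epithelium, rose by 1.99 ± 0.27 (edgeR adjusted p 7.68e-07), and EGR2 by 1.08 ± 0.43 (edgeR adjusted p 0.0405). EGR2 was called on average only and not in any single treatment. It averaged 0.896 CPM over the sgAAVS1 groups and 1.93 CPM over the sgERH groups, and which reads carried it past the filter was not tested. KLF15 was at 2.44 to 3.99 CPM in the sgERH groups and 0.105 to 0.612 CPM in the sgAAVS1 groups, and KLF9 at 1.16 to 2.11 CPM against 0 to 0.254 CPM. KLF9 had no read in sgAAVS1_NT and both genes had few reads in sgAAVS1, so levels are given here in place of fitted folds. Both passed the filter on low counts through their sgERH reads, so the count risen and the list median partly reflect that filter.

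Of 51 other immediate-early genes, 50 were tested, and 12 rose in NT, 13 with IFNγ, 11 with IL-1β and 12 on average, with 0 fallen in each. Over all genes tested the shares risen were 5.95%, 5.24%, 5.68% and 6.75%. The average median was 0.39, beside 0.04 over all genes. ARC, a postsynaptic immediate-early gene, was at 2.15 ± 0.47, GEM, a small GTPase, at 1.88 ± 0.44, JUND, an AP-1 subunit, at 1.64 ± 0.07 and ATF3, a stress-inducible bZIP factor, at 1.60 ± 0.24. JUND was the best counted of these 4, at 61.5 to 77.0 CPM in the sgAAVS1 groups and 192 to 233 CPM in the sgERH groups. ARC and GEM averaged 0.594 and 0.854 CPM over the sgAAVS1 groups, against 2.53 and 3.15 CPM over the sgERH groups. Their fitted folds therefore rest on few reads in sgAAVS1. Genes this low can pass the filter on low counts through their sgERH reads. The counts risen and the list median may therefore partly reflect that filter, and the size of that part was not tested. In sgERH_NT, RGS2, a G protein regulator, was at 2.00 ± 0.24, FOS, another AP-1 subunit, at 1.91 ± 0.44, and CEBPB, a bZIP factor of inflammation, at 1.59 ± 0.18. With cytokine in sgAAVS1, MAFF rose with IFNγ (1.18 ± 0.15), and FOS (1.98 ± 0.47, edgeR adjusted p 0.0368) and NFKBIZ (1.17 ± 0.18) rose with IL-1β. FOS was at 1.58 CPM in sgAAVS1_NT, 6.20 CPM in sgAAVS1_IL-1β and 5.92 CPM in sgERH_NT. Both of its folds against sgAAVS1_NT therefore rest on few reads there. No gene of this list was called with either cytokine in sgERH, where 0.015% of all genes were called with IFNγ and 0.292% with IL-1β. In sgAAVS1 the shares were 0.598% and 0.636%, and no gene of the list was called for either interaction.

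The MYC network list, which holds MAX, its partners and the MXD repressors, had 19 of 20 genes tested, and 2 rose in sgERH in each treatment and on average, where 6.75% of all genes rose. The median on average was 0.07. They were MNT and MXI1, both repressors that bind MAX. MNT averaged 3.68 CPM in sgAAVS1 and 10.3 CPM in sgERH, and MXI1 had a log2 fold change of 1.29 ± 0.10 on average. MXI1 went from 18.5 to 20.7 CPM over the sgAAVS1 groups to 46.8 to 50.1 CPM over the sgERH groups. Of 42 MYC-activated genes 41 were tested. None rose, 2 fell in NT and 1 fell in each of the other comparisons between guides, and the median was −0.42 in NT and −0.30 on average. Over all 13370 genes tested, 307 fell in NT, 317 with IFNγ, 374 with IL-1β and 286 on average. By the adjusted p alone 27 of the 41 were lower in NT, 19 with IFNγ and 11 with IL-1β, where 13.7%, 12.6% and 13.1% of all genes were. LDHA, the lactate dehydrogenase subunit, fell by 1.32 on the log2 scale (SE 0.06) on average, with 29.2% of its reads multimapping, and PPAN, a ribosome assembly factor, fell by 1.04 (SE 0.17) in NT. The shift of the all-gene median to 0.20 with total counts as the only scaling moves the whole list in the same way. Of 6 MYC-repressed genes 5 were tested and 2 rose on average, where 6.75% of all genes rose. They were GADD45A (1.55 ± 0.07) and CDKN1C (1.27 ± 0.17), and the list median was 0.55. Of the CDKN1C reads, 96.3% were multimapping. MYC RNA itself was at −0.11 in this comparison.

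Regulators of short-lived mRNAs and upstream kinases were listed too. Of 22 genes of AU-rich mRNA decay, all tested, 2 were called on average, near the 8.89% of all genes, with a list median of 0.01. ZC3H12A (Regnase-1, an endonuclease of inflammatory transcripts) was at 1.06 ± 0.11 and CNOT6L, a deadenylase, at −1.37 ± 0.13 on average over treatments. ZC3H12A also rose with IL-1β against NT, by 2.18 ± 0.21 in sgAAVS1 and 1.03 ± 0.15 in sgERH. XRN1, the 5′ exonuclease, was at −1.31 ± 0.23 in sgERH against sgAAVS1 among cells given IFNγ. Of 24 upstream signalling genes 23 were tested and 0 were called on average, with a median of −0.03. Between guides, RPS6KA4, a kinase of CREB and histone H3, was at −1.11 ± 0.16 in NT. RPS6KA5 (1.21 ± 0.36) and CRTC1 (1.03 ± 0.34) were higher in sgERH than in sgAAVS1 among cells given IL-1β. No gene of this list was called for IFNγ or IL-1β against NT in either guide. Of 7 partners and corepressors, all tested, 0 were called in any comparison between guides, and the median on average was 0.02.

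The members were also read in the 3 libraries left out of the tests. In CPM of total counts, MYC was at 2.10 in sgAAVS1_NT replicate 1 against 23.6 and 35.1 in the other 2, and at 5.12 in sgERH_IFNγ replicate 2 against 47.4 and 41.0. KLF10 was at 1.31 and 5.59 in these 2 libraries, beside 30.2 to 35.3 and 25.5 to 27.5 in the rest of their groups. NR4A2 had 0 reads in the first and 2.10 CPM in the second, where the other sgERH_IFNγ libraries had 17.0 and 14.7. In sgAAVS1_IL-1β replicate 3, the deepest library, MYC was at 29.2 CPM against 47.8 and 47.2, and KLF10 at 32.7 against 37.1 and 33.8. The kept library sgERH_IL-1β replicate 2 was below the rest of its group in 4 of the 7 tested members. MYC was at 20.4 CPM against 38.7 and 44.5, KLF10 at 18.6 against 28.7 and 32.0, and NR4A2 at 7.76 against 12.9 and 17.99. NR4A1 was at 1.36 CPM against 4.62 and 6.82. In the same library EGR1 and IER3 were above the rest of the group, and IER2 was within it. ERH was at 52.7 CPM in the left-out sgAAVS1_NT library, under every sgERH library used in the tests, and at 126 CPM in the left-out sgERH_IFNγ library. Among the other immediate-early genes, 38, 39, 31 and 36 of 50 were below the rest of their group in these 4 libraries, in the order given, beside 56.6%, 49.7%, 47.0% and 44.5% of all genes tested. The part of RNA quality or of these libraries' depth in these values was not tested.

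**Figure D4:**
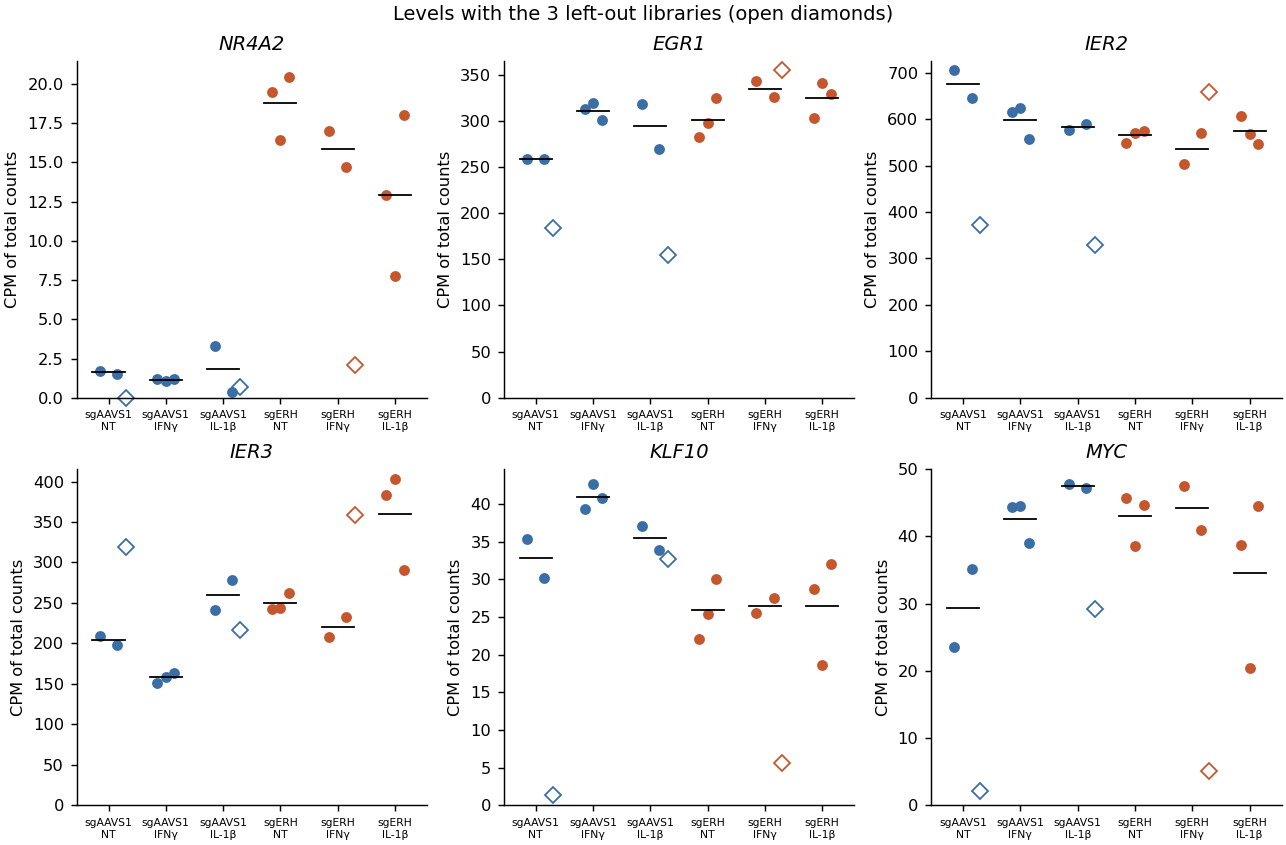
CPM of total counts (vertical axis, from 0) of 6 members in all 18 libraries by group, with sgAAVS1 in blue and sgERH in orange. Filled points are the 15 libraries used, lines are their means, and open diamonds are the 3 left out. MYC and KLF10 are at 1.31 to 5.59 CPM in the left-out NT and IFNγ libraries, while IER3 is at 319 and 359 CPM there.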

How the data were processed

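Reads of 3′ mRNA libraries (QuantSeq FWD) were trimmed by the authors with Trim Galore 0.6.2, checked with FastQC 0.11.8, mapped to GRCh38 with SlamDunk and counted in 3′ end windows made with 3-GAmES. Per gene symbol, the authors deposited raw read counts and, beside them, counts of multimapping reads. Their columns of T-to-C reads were not used. A 3′ end count does not see the rest of the transcript.

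Counts of 15 libraries were fitted with edgeR 4.0.16 (R 4.3.3, robust quasi-likelihood F test, TMM factors, filterByExpr) as 1 model of 6 groups over 13370 genes, without the 3 libraries the study removed. The common biological coefficient of variation was 12.6%. Benjamini-Hochberg adjustment ran over all genes tested, in each of 10 comparisons. Members, gene lists and thresholds were chosen with earlier results of these data known. Separate cultures are not stated for the replicates, and the p-values therefore reflect only how these libraries vary, possibly for technical reasons. Precision follows depth, with 3 reads worth 0.501 to 0.602 CPM in the libraries used. Identical tables were looked for and not found. Genes named were all 10 members, up to 4 called genes of each list with the largest fold in the comparison described, and 3 genes nearest in pattern to each member whose groups spanned at least 1 in log2, with a mean of at least 5 CPM. Positions come from GENCODE 44. Scripts were tested on simulated data. Alternatives were DESeq2 1.42.0, its size factors, no filter, all 18 libraries, only the groups compared, a replicate block, non-multimapping reads, total-count scaling and leaving out each library.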

Additional observations from a re-analysis of the deposited data

Results flagged for a closer look

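These 3 values lie in libraries that no comparison used and are above the level of the non-treated control libraries. IER3 was at 359 CPM of total counts in the left-out sgERH_IFNγ replicate 2 and at 319 CPM in the left-out sgAAVS1_NT replicate 1, while the kept sgAAVS1_NT libraries reached 209 CPM. EGR1 was at 355 CPM in the left-out sgERH_IFNγ replicate 2, beside 258 CPM in each kept sgAAVS1_NT library. The 2 kept libraries of its own group were at 343 and 326 CPM for EGR1, close to that value, and at 208 and 233 CPM for IER3. All IER3 reads were multimapping. In the same 2 libraries MYC was at 2.10 and 5.12 CPM and KLF10 at 1.31 and 5.59 CPM.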

How the results depend on the processing

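NR4A2 was called in sgERH in each treatment and on average under every alternative that gave a value, and no member changed direction while called. The number of members called in sgERH_NT was 1 in place of 2 with all 18 libraries (NR4A1 2.23, adjusted p 0.1) and with the replicate block (1.95, adjusted p 0.0547). Leaving out 1 library at a time gave 1 to 2 called members in NT, 1 to 2 with IL-1β, 1 to 2 on average and 0 to 1 for the IL-1β interaction. Same-numbered libraries did not deviate together (30 pairs, r −0.06 to 0.142, median 0.00693), so the numbers were not taken as pairs, and the block changed no other call of a member. Reads that are not multimapping gave no value for IER3. With all 18 libraries KLF10 in NT was 0.02 (adjusted p 0.987) and IER2 with IL-1β 0.05 (adjusted p 0.951). Total counts as the only scaling, chosen after seeing the data, moved the calls in NT from 795 higher and 307 lower to 1171 and 140.

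The number of genes called over the whole table moved by over 1.5 times as follows. With all 18 libraries it was 22 for IFNγ and 12 for IL-1β in sgAAVS1, 1 and 7 in sgERH, 678, 389 and 394 for sgERH in NT, IFNγ and IL-1β, and 3 for the IFNγ interaction. With IFNγ in sgERH (2 in the fit reported) DESeq2 gave 8, no filter 16, only the groups compared 16 and non-multimapping reads 5. With IL-1β in sgAAVS1 (85) DESeq2 gave 154, no filter 203, only the groups compared 276 and the replicate block 174. With IL-1β in sgERH (39) no filter gave 68 and only the groups compared 17. For the IL-1β interaction (0) DESeq2 gave 2 and no filter 70. Leaving out 1 library at a time gave 18 (sgAAVS1_NT replicate 2) to 263 (sgERH_IL-1β replicate 2) for IL-1β in sgAAVS1, 19 (sgERH_NT replicate 2) to 87 (sgERH_IL-1β replicate 3) for IL-1β in sgERH, and 0 to 140 (sgERH_IL-1β replicate 3) for the IL-1β interaction. It gave 56 to 130 for IFNγ in sgAAVS1, 2 to 11 in sgERH and 16 to 39 for the IFNγ interaction (27). Causes were not tested. Depth limits NR4A1 (3 to 36 reads in a library used), NR4A2 in sgAAVS1 (2 to 17), and IER5, KLF4 and KLF6 (0 to 10).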
